A study of Mus musculus with 18 samples.

Results

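Transcripts of 10 genes of macrophages and microglia were followed in bulk RNA sequencing of the mouse RPE (retinal pigment epithelium), a pigmented monolayer that supports the photoreceptors of the retina. The genes were Lyz2, Ctss, Cd68, Trem2, Tyrobp, Csf1r, Aif1, Cx3cr1, Itgb2 and Cd52, found by symbol among the 21859 rows of the count table. The genes were selected on their Old against Young values in these libraries. Those values are therefore given as a description without a test, and tests of these 10 genes are kept to the comparisons among old RPE. All 10 genes passed the filter on low counts.

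The 18 libraries fall into 4 groups by their labels: Young (7 libraries), Old (4), Old-Control (3) and Old-OSK (4). Young and Old carry no vector in their labels. Old-Control is old RPE with AAV2-tTA, and Old-OSK is old RPE with AAV2-tTA;TRE-OSK. AAV2 is a viral vector of the adeno-associated type. The transactivator tTA, which tetracyclines control, drives the TRE promoter. OSK stands for the transcription factors Oct4 (Pou5f1), Sox2 and Klf4. Both vector groups carry tTA, so they differ in the TRE-OSK vector. Strain, ages, doses and the number of animals behind a library are not in the labels, so p-values measure only the spread between these libraries, which may be technical.

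Macrophages and microglia are the resident phagocytes of the eye. Microglia lie in the retina, macrophages lie in the choroid behind the RPE, and both can collect beneath the retina at the RPE surface. Their survival depends on the receptor kinase CSF1R and its ligands CSF1 and IL-34. TREM2 senses lipids and signals through the adaptor TYROBP, CX3CR1 is the receptor for fractalkine, and ITGB2 is the shared beta chain of the leukocyte integrins. Lysozyme, cathepsin S and CD68 belong to the secretory and lysosomal machinery of these cells, AIF1 (also called IBA1) is their usual stain, and CD52 is a small surface glycoprotein of leukocytes. In a bulk library, fewer cells of a type and less RNA per cell cannot be told apart.

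Promoters are shown because 9 of the 10 genes had parallel levels across the libraries. RefSeq promoter entries (build GRCm38.p6) were matched for 6 of the 10 genes: Ctss, Trem2, Cd68, Aif1, Lyz2 and Cx3cr1. The 250 bases before each start site were searched on both strands for GAGGAA, the core of the site bound by the myeloid factor PU.1 (gene Spi1). It was present in 4 of the 6 windows and in 23.3% of all 32851 windows of the same length. The longer form GAGGAAGT, which contains the first motif, was in 0 of the 6 and in 2.44% of all windows. The E-box CACGTG was in 0 of the 6 and in 6.02% of all. A match is a description of letters, not a bound site. The 4 windows with a match follow, 5′ to 3′ on the gene's own strand, with the motif or its reverse complement TTCCTC in capitals. They lie at chr3:95526536-95526785 (Ctss, plus strand), chr17:48346151-48346400 (Trem2, plus strand), chr11:69666171-69666420 (Cd68, minus strand) and chr17:35176053-35176302 (Aif1, minus strand).
Ctss: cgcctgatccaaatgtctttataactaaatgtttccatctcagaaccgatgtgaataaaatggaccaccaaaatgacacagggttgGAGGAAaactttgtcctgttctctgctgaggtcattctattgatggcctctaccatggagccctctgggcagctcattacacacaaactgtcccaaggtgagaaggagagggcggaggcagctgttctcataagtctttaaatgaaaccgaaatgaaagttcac
Trem2: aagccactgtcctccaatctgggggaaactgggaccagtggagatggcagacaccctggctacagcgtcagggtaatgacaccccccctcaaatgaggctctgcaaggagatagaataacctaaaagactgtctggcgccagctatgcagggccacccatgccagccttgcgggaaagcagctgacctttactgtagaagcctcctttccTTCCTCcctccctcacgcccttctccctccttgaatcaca
Cd68: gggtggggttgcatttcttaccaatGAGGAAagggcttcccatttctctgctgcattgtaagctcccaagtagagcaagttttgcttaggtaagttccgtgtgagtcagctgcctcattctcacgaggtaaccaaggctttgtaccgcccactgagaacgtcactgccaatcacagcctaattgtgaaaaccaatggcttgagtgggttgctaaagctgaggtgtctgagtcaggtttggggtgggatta
Aif1: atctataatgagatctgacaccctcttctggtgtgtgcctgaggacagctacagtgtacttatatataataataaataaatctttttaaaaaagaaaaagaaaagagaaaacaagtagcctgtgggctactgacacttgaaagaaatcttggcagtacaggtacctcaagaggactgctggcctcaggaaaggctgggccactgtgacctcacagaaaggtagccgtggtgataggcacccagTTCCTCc
The match begins 164 bases before the start site in Ctss, 40 in Trem2, 225 in Cd68 and 7 in Aif1. In Ctss and Cd68 it reads GAGGAA on the gene's strand, and in Trem2 and Aif1 it reads TTCCTC.

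Library totals lay between 18104828 and 32348136 counts. Levels are given as CPM, library-scaled counts (edgeR's cpm) after correction of the library sizes by the trimmed mean of M values (TMM), and fold changes are the log2 values of 1 edgeR quasi-likelihood fit over all 18 libraries. A gene is called when its Benjamini-Hochberg adjusted p, taken over all 15944 tested genes, is under 0.05. The vector labels were checked first: Pou5f1 was at 0.651 ± 0.370 CPM in Old-Control (SD, n = 3) and 75.1 ± 21.1 CPM in Old-OSK (SD, n = 4). Old replicate 4 and Old-Control replicate 2 stood apart from their groups. On the first principal component (46.5% of the variance) they scored 73.2 and 61.8, within the Old-OSK range of 45.7 to 96.0. Results that rest on them are given with and without them. The names of 6 libraries (Young 5, 6 and 7, Old-Control 2 and 3, Old-OSK 4) carry a letter M that the labels do not explain. Those 6 had 4040 to 5493 counts on Y-linked genes, which mark male tissue, and each of the other 12 had at most 93. Male and female libraries are therefore unevenly spread: M marks 3 of 7 Young, 0 of 4 Old, 2 of 3 Old-Control and 1 of 4 Old-OSK libraries. RPE markers were abundant in every group: Rpe65, the visual cycle isomerase, was at 5310.3 ± 1167 CPM in Young and 1733 ± 397 CPM in Old-OSK.

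**Figure D1:**
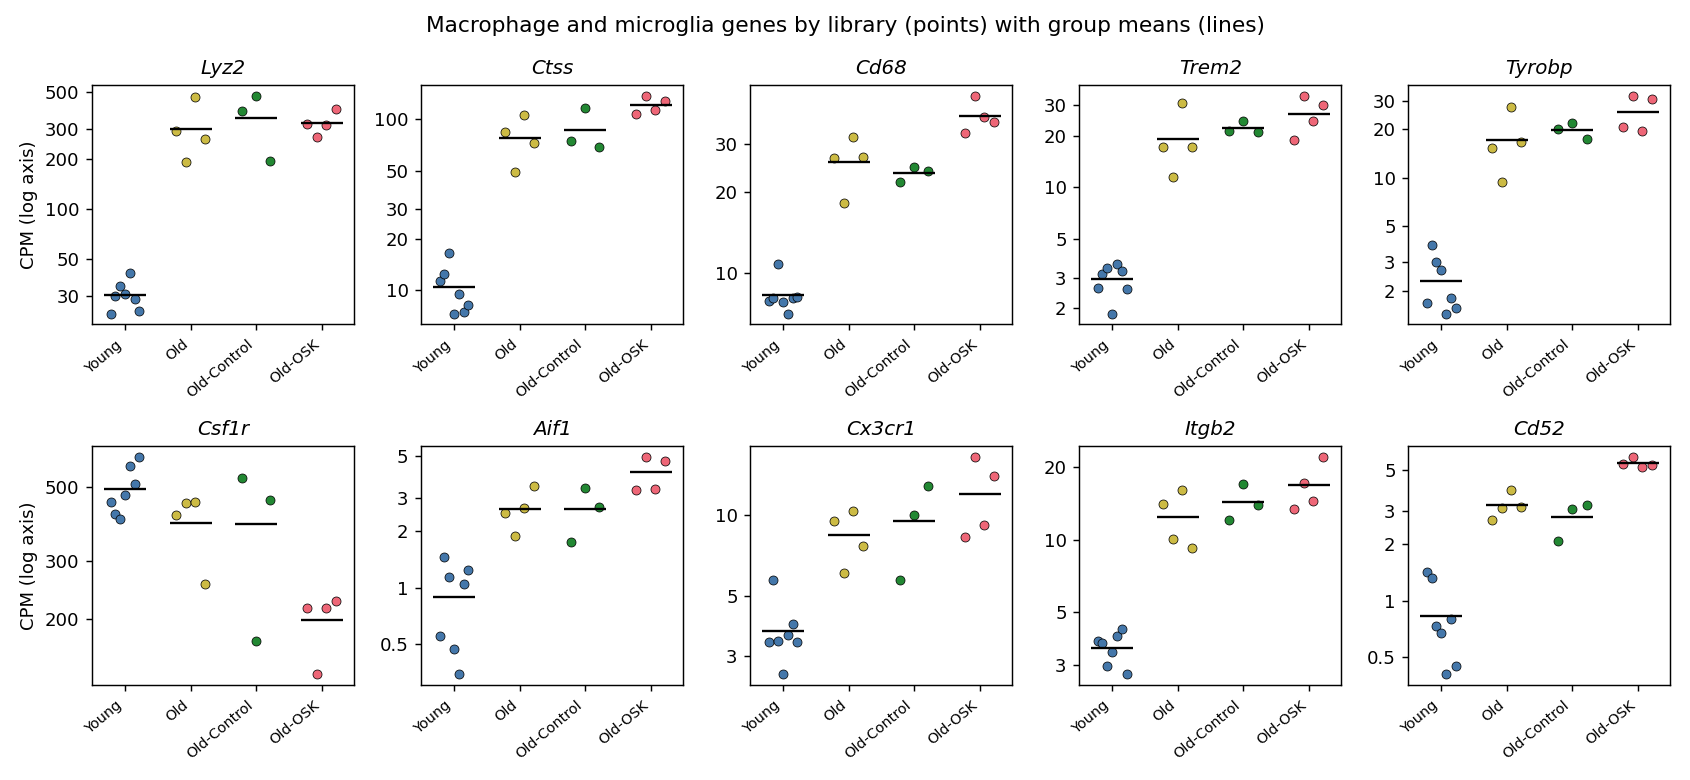
CPM of the 10 genes (log axes that differ between panels) in each library, with points for libraries and lines for group means. For 9 genes the panels show Young at the bottom and the old groups above (in Cx3cr1 1 Old-Control library reaches into Young), and the Csf1r panel shows the highest values in Young and the lowest in Old-OSK.

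The lysosomal and secretory genes come first. Lyz2, which encodes lysozyme, was at 23.5 to 41.0 CPM in Young (median 29.7). Old libraries 1 to 4 had 291, 190.4, 467 and 263 CPM, Old-Control had 385, 476 and 192 CPM, and Old-OSK had 321, 268, 317 and 396 CPM. Every old library, with or without vector, lay above every Young library, and the 3 old groups overlapped. Mean Lyz2 was 30.3 ± 6.06 CPM in Young (SD, n = 7) and 303 ± 117 CPM in Old (SD, n = 4), and the fitted log2 difference was 3.32 (SE 0.24). Lyz2 has a close paralog, Lyz1, which could exchange reads with it and had a mean log2 CPM of only 0.06 over the libraries.

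Ctss encodes cathepsin S, a protease that trims the invariant chain of class II molecules. It was at 7.29 to 16.5 CPM in Young (median 9.49). Old libraries had 84.0, 49.0, 106 and 72.5 CPM, Old-Control had 74.4, 117 and 69.0 CPM, and Old-OSK had 107, 137, 113 and 127 CPM. Old-OSK was high in all 4 libraries, and Old-Control replicate 2 was the only control library inside its range. The log2 fold change of Old against Young was 2.90 (SE 0.23).

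Cd68, a lysosomal membrane glycoprotein of phagocytes, was at 7.06 to 10.8 CPM in Young (median 8.05). Old libraries had 26.6, 18.1, 31.8 and 26.9 CPM, Old-Control had 21.8, 24.8 and 23.8 CPM, and Old-OSK had 33.1, 45.4, 38.0 and 36.3 CPM. Each of the 4 Old-OSK libraries exceeded every Old-Control and Old library. The log2 fold change of Old against Young was 1.65 (SE 0.14), the smallest of these 3 lysosomal and secretory genes. Within libraries, the ratio of Cd68 to Lyz2 CPM was 0.280 ± 0.0575 in Young (SD, n = 7) and 0.0891 ± 0.0147 in Old (SD, n = 4), so the genes of this pair did not change in proportion.

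The lipid receptor Trem2 and its adaptor Tyrobp followed each other. Trem2 was at 1.86 to 3.59 CPM in Young (median 3.15), and Old libraries had 17.2, 11.4, 30.8 and 17.2 CPM. Its Old-Control libraries had 21.2, 24.3 and 21.0 CPM, and its Old-OSK libraries had 18.8, 34, 24.3 and 30.1 CPM. Tyrobp was at 1.45 to 3.82 CPM in Young (median 1.80), and Old libraries had 15.2, 9.46, 27.4 and 16.6 CPM. In both genes Old replicate 3 was the highest and Old replicate 2 the lowest of the Old group, and Young lay below every old library. Tyrobp had 20.1, 21.8 and 17.4 CPM in Old-Control and 20.6, 32.2, 19.4 and 30.7 CPM in Old-OSK. The log2 fold changes of Old against Young were 2.71 (SE 0.23) for Trem2 and 2.89 (SE 0.28) for Tyrobp. The ratio of Trem2 to Tyrobp CPM was 1.12 ± 0.0726 in Old, 1.12 ± 0.0768 in Old-Control and 1.05 ± 0.147 in Old-OSK (SD, n = 4, 3 and 4). In Young it was 1.45 ± 0.622 (SD, n = 7), a wider spread at counts of 25 to 119 for Tyrobp.

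Cx3cr1, the fractalkine receptor, was at 2.57 to 5.75 CPM in Young (median 3.42). Old libraries had 9.48, 6.11, 10.3 and 7.68 CPM, Old-Control had 5.72, 10.0 and 12.7 CPM, and Old-OSK had 8.28, 16.4, 9.16 and 13.9 CPM. Old lay above Young by a narrow margin, and Old-Control replicate 1 lay just under Young replicate 2. Its log2 fold change of Old against Young, 1.17 (SE 0.25), was the smallest of the 9. Itgb2 was at 2.76 to 4.25 CPM in Young (median 3.73) and at 14.1, 10.0, 16.1 and 9.23 CPM in Old. It had 12.1, 17.1 and 13.9 CPM in Old-Control and 13.5, 17.3, 14.5 and 22.2 CPM in Old-OSK. Its 3 old groups overlapped, all above Young, with a log2 fold change of Old against Young of 1.80 (SE 0.18).

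Aif1 and Cd52 were the members with the fewest counts, down to 6 and 7 in a Young library. Aif1 was at 0.347 to 1.45 CPM in Young (median 1.05), and at 2.49, 1.88, 2.65 and 3.44 CPM in Old. It had 1.74, 3.38 and 2.66 CPM in Old-Control and 3.29, 4.95, 3.35 and 4.71 CPM in Old-OSK. Cd52 was at 0.405 to 1.43 CPM in Young (median 0.734), and at 2.68, 3.14, 3.88 and 3.17 CPM in Old. Old-Control had 2.08, 3.08 and 3.25 CPM of Cd52, and Old-OSK had 5.37, 5.86, 5.15 and 5.27 CPM. Both genes were higher in every old library than in every Young one, and Cd52 was higher in every Old-OSK library than in any Old or Old-Control library. The log2 fold changes of Old against Young were 1.55 (SE 0.33) for Aif1 and 1.93 (SE 0.28) for Cd52. Of the exon bases of Cd52, 14.5% overlap Crybg2 on the opposite strand, and the library kit does not mark strand, so reads there cannot be assigned to a gene. Crybg2 was at 9.32 ± 11.8 CPM in Young, 43.9 ± 40.1 CPM in Old, 14.5 ± 7.79 CPM in Old-Control and 71.9 ± 40.2 CPM in Old-OSK. Its part in the Cd52 values was not tested.

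Csf1r, the receptor for CSF1 and IL-34, did not follow the other 9 genes. Young libraries 1 to 7 had 451, 414, 401, 475, 580.3, 514 and 619.9 CPM. Old libraries had 412, 448, 450.0 and 254 CPM, Old-Control had 533, 171 and 459 CPM, and Old-OSK had 216, 136, 215 and 227 CPM. Old overlapped Young, Old-OSK lay below all of Young, and the lowest Old and Old-Control libraries were Old replicate 4 and Old-Control replicate 2. The log2 fold change of Old against Young was -0.34 (SE 0.25), and -0.18 without Old replicate 4. Within Young, the 3 libraries with M and Y-linked counts lay at 514 to 619.9 CPM and the 4 without at 401 to 475 CPM, without overlap. For the other 9 genes these subsets of Young overlapped. In the libraries without M, the Old against Young log2 fold change of Csf1r was -0.16, and those of the other 9 lay between 1.14 and 3.36. Since Old has only libraries without M, the contrast over all libraries is unbalanced for sex, and none could be made within the M libraries.

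Levels of different genes were compared per kilobase of merged exons (GENCODE M21), which ignores the choice of isoform. In Young the order of mean CPM per kilobase was Csf1r 85.5, Lyz2 23.0, Ctss 7.65, Cd68 6.56, Tyrobp 3.43, Itgb2 1.17, Cx3cr1 0.826, Cd52 0.699, Trem2 0.593 and Aif1 0.583. Library ranges overlapped between Ctss and Cd68, between Cd68 and Tyrobp, and in each neighbouring pair from Itgb2 down to Aif1, so these neighbours were not separated. In Old the order was Lyz2 230.2, Csf1r 67.8, Ctss 57.3, Tyrobp 25.7, Cd68 20.6, Itgb2 4.06, Trem2 3.87, Cd52 2.71, Cx3cr1 1.86 and Aif1 1.71. Lyz2 and Csf1r exchanged places. The library ranges of Csf1r and Ctss, of Ctss and Tyrobp, of Tyrobp and Cd68, and of each neighbouring pair from Itgb2 down to Aif1 overlapped in Old.

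For 9 of the 10 genes all Old libraries lay above all Young libraries, a pattern held by 3.69% of all tested genes, with 5.61% wholly below. This contrast chose the genes, so nothing is read from that count. It was 9 in each of the 11 comparisons without 1 library, but leaving out a library can never lower this count. The median log2 fold change of the 10 was 1.86, that of the 9 without Csf1r was 1.93 (1.17 to 3.32), and that of all tested genes was -0.0044. In Old-Control against Young, 8 of 10 genes lay wholly above (4.67% of all genes, with 3.86% wholly below), with Cx3cr1 and Csf1r overlapping. In Old-OSK against Young, 9 lay wholly above (12.6% of all genes) and Csf1r wholly below (15.6%). These 3 comparisons share the Young libraries. In Old-OSK against Old, Ctss, Cd68 and Cd52 lay wholly above (3.7% of all genes) and Csf1r wholly below (4.45%).

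The contrast of Old-OSK with Old-Control asks what the OSK factors add to the tTA vector in old RPE. None of the 10 genes was called, while 116 of all genes (0.728%) were, 65 higher (0.408%) and 51 lower (0.32%). At an unadjusted p under 0.05, 2 members were higher and 1 lower, against 13.3% and 13% of all genes. Those 3 were Cd68, Cd52 and Csf1r. DESeq2 called 3 members, the same 3 genes in the same directions, while it called 999 genes higher and 641 lower over all.

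Cd68 went from 23.4 ± 1.54 CPM in Old-Control (SD, n = 3) to 38.2 ± 5.18 CPM in Old-OSK (SD, n = 4), with a fitted log2 difference of 0.70 (SE 0.17; adjusted p = 0.0597, edgeR). It passed without Old-Control replicate 2 (0.71, adjusted p = 0.0243) and without Old-OSK replicate 4 (0.68, adjusted p = 0.0323), and over the 7 edgeR fits without 1 library the adjusted p lay between 0.0243 and 0.327. Cd52 went from 2.80 ± 0.634 to 5.41 ± 0.313 CPM (log2 fold change 0.95, SE 0.35, edgeR adjusted p = 0.116). Cd68 and Cd52 were the 2 members with every Old-OSK library above every Old-Control library, a pattern held by 6.55% of all genes, with 5.84% wholly below.

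Csf1r went from 388 ± 191 CPM in Old-Control to 198 ± 42.1 CPM in Old-OSK (log2 fold change -0.97, SE 0.30; adjusted p = 0.0856, edgeR). Old-Control replicate 2 lay inside the Old-OSK range, and without it Csf1r passed with a log2 fold change of -1.34 (SE 0.24, adjusted p = 0.0047). Without Old replicate 4 as well, the value was -1.34 (adjusted p = 0.000689). In this contrast 9 of 10 RPE marker genes were lower at an unadjusted p under 0.05 and 0 were called (edgeR). Their part in the Csf1r value was not tested.

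The other 7 genes had log2 fold changes between -0.11 and 0.65 in this contrast. Ctss (0.48, SE 0.28, edgeR adjusted p = 0.291) and Aif1 (0.65, SE 0.41, adjusted p = 0.335) had the largest. Lyz2 had a log2 fold change of -0.11 (SE 0.29, adjusted p = 0.865), which was 0.15 without Old-Control replicate 2. Trem2 (0.28), Tyrobp (0.38), Cx3cr1 (0.33) and Itgb2 (0.23) had an edgeR adjusted p of at least 0.531. Over the 10 genes the median was 0.36, against -0.028 for all tested genes.

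The contrast of Old-Control with Old asks whether tTA vector alone goes with a difference in these genes. This comparison shares the Old libraries with the contrast that chose the genes. None of the 10 genes was called by edgeR or DESeq2, 0 had an unadjusted p under 0.05, and every gene's libraries overlapped between the groups (2.25% of all genes lay wholly above and 0.928% wholly below). Over all genes 0 were called (0%) as well, and 2.4% were higher and 1.34% lower at an unadjusted p under 0.05. The 10 log2 fold changes lay between -0.20 and 0.22. In seeded simulations of this contrast, edgeR recovered 56 of 100 genes changed 2-fold and 82 of 100 changed 4-fold.

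**Figure D2:**
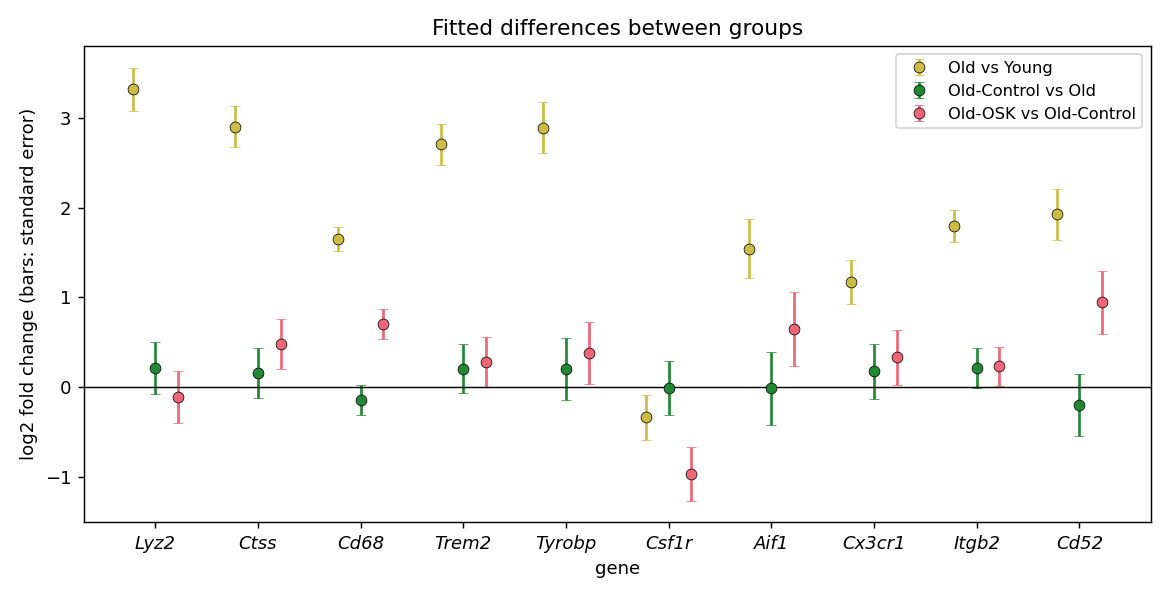
Log2 fold changes of the 10 genes with standard errors in Old against Young, Old-Control against Old and Old-OSK against Old-Control. Old against Young lies between 1.17 and 3.32 for all genes but Csf1r (-0.34), Old-Control against Old lies near 0, and Cd68, Cd52 and Csf1r lie farthest from 0 in Old-OSK against Old-Control.

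The 9 genes without Csf1r also varied together from library to library. Old replicate 3 was the highest Old library in 8 of the 9 genes, and Old replicate 2 the lowest in 7. Old-Control replicate 2 was the highest of its group in 7, and Old-OSK replicate 2 in 7. Over the 18 libraries the 36 pairs among the 9 correlated with Pearson r between 0.83 and 0.98 (median 0.93) on the log2 CPM scale. After removal of the group means the range was -0.19 to 0.75 (median 0.47). These r values describe libraries that share groups and depth.

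Outside the 10 genes, Itgax, C1qc, Laptm5, Mpeg1, C1qa, Fcer1g, C1qb and Cd84 had the profiles most like their mean profile, with r between 0.971 and 0.989 over 18 libraries. Deviations from the group means correlated with r between 0.667 (Fcer1g) and 0.868 (Laptm5). Itgax encodes the alpha X chain that pairs with ITGB2, Fcer1g an adaptor of Fc receptors, and the 3 C1q genes the subunits of complement C1q. Among the members themselves, r with the mean profile ran from 0.913 (Aif1) to 0.990 (Trem2) for the 9, and was -0.637 for Csf1r. After removal of the group means, r ran from 0.428 (Cd52) to 0.857 (Trem2) for the 9, and was -0.305 for Csf1r. Each member is part of that mean, and Old against Young chose the genes, so a high r is partly built in.

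The profile of Csf1r was most like those of Car12, Col8a2, Gpr146, Car14, Mertk, Rapgef4, Slc4a2 and Dmpk, with r between 0.987 and 0.995 over the 18 libraries and between 0.975 and 0.989 after removal of group means. Mertk is the receptor with which RPE engulfs photoreceptor outer segments. With the 10 RPE markers Csf1r had r between -0.406 (Best1) and 0.987 with a median of 0.970, and between -0.098 and 0.975 with a median of 0.951 after removal of group means. With the other 9 macrophage genes it had r between -0.741 and -0.592. With the summed CPM of the RPE markers r was 0.980 over 18 libraries and 0.894 within the 7 Young libraries. Summed CPM of the 9 genes had r of -0.580 and -0.515 with the same markers.

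The RPE markers summed to 40602 to 67245 CPM in Young, 27474 to 48662 CPM in Old, 20673 to 64114 CPM in Old-Control and 15440 to 30503 CPM in Old-OSK. Old replicate 4 (27474 CPM) and Old-Control replicate 2 (20673 CPM) were the lowest of their groups, as they were for Csf1r. The ratio of Csf1r to Rpe65 CPM was 0.0946 ± 0.0138 in Young, 0.113 ± 0.00721 in Old, 0.103 ± 0.0107 in Old-Control and 0.115 ± 0.00961 in Old-OSK (SD, n = 7, 4, 3 and 4). Group means of this ratio lay closer together than those of Csf1r itself, which ran from 198 to 494 CPM. The 3′ part of Csf1r overlaps Hmgxb3 on the opposite strand over 15.1% of its exon bases. Hmgxb3 was at 32.9 ± 3.83 CPM in Young and 26.0 ± 1.90 CPM in Old-OSK. Its part in the Csf1r values was not tested.

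**Figure D3:**
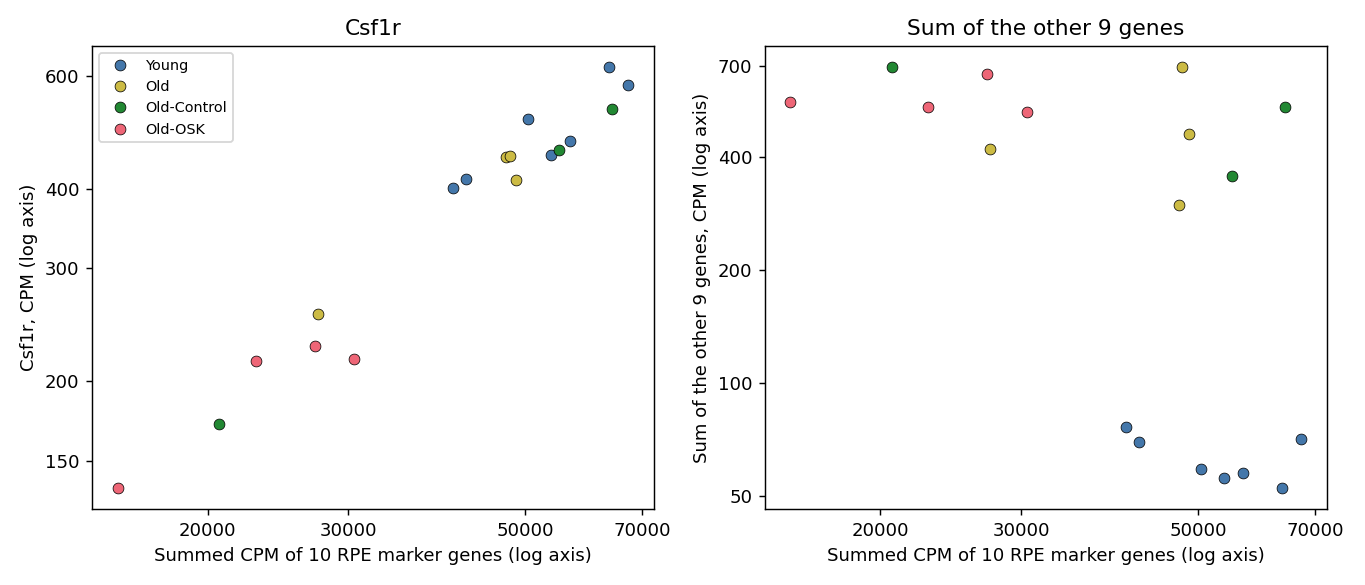
Csf1r (left) and the sum of the other 9 genes (right), in CPM, against the summed CPM of 10 RPE markers, with 1 point a library and all axes logarithmic. Csf1r runs with the RPE markers in all 4 groups (r = 0.980), whereas the sum of the 9 separates Young (52.5 to 76.3 CPM) from the 3 old groups (299.6 to 697 CPM).

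Other genes of macrophages and microglia were taken from 9 lists with 104 genes that were in the table, of which 102 were tested. The lists were chosen with earlier results of these data known. Their Old against Young tests use the libraries and contrast that chose the 10 genes, so they are not independent support for those genes. In Old against Young, 46 of the 102 (45.1%) rose and 0 fell (edgeR, adjusted p under 0.05), while 5.4% of all genes rose and 4.16% fell (9.56% called in all). The median log2 fold change was 1.02 over the 102 and -0.0044 over all genes. The count was 30 without Old replicate 3, 29 without Old replicate 4, and 23 (22 higher, 1 lower) within the libraries without M. Over all genes these fits called, in that order, 480 higher and 339 lower, 233 and 160, and 202 and 243. Close relatives among the Fc receptor, Lilrb4 and class II genes can exchange reads.

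Among 25 genes common to myeloid cells, 20 rose in Old. Mpeg1, the pore-forming perforin-2, went from 10.7 ± 3.70 to 64.1 ± 19.9 CPM (log2 fold change 2.59, SE 0.23, edgeR adjusted p = 7.33e-06). Cybb, the NADPH oxidase subunit, rose by 2.19 (adjusted p = 1.68e-05) and Laptm5, a lysosomal membrane protein, by 1.76 (adjusted p = 0.000122). Ptprc, the leukocyte antigen CD45, was at 4.70 ± 1.89 CPM in Young and 8.15 ± 2.11 CPM in Old (0.79, adjusted p = 0.0821), not called. Plek was not called either (0.21, adjusted p = 0.322).

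Of 12 genes used for homeostatic microglia, 5 rose. P2ry12, an ADP receptor, was at 0.562 ± 0.243 CPM in Young and 1.73 ± 0.925 CPM in Old (log2 fold change 1.63, edgeR adjusted p = 0.0296), Selplg rose by 1.33 (adjusted p = 0.0033) and Gpr34 by 1.2 (adjusted p = 0.0342). Tmem119 (0.68, adjusted p = 0.125) and the microglial transcription factor Sall1 (-0.59, adjusted p = 0.368) were not called. Olfml3 (-0.04, adjusted p = 0.91) and Crybb1 (-4.04, SE 1.34, adjusted p = 0.0627) were not called either. Crybb1 is also a lens crystallin.

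The list of lipid-handling and phagocytic state genes had 17 of its 18 genes in the table, and 6 rose. Itgax went from 0.992 ± 0.278 to 7.84 ± 2.42 CPM (log2 fold change 2.97, SE 0.24, edgeR adjusted p = 3.85e-06), Cst7 rose by 2.80 (adjusted p = 0.006) and Lilrb4a by 1.52 (adjusted p = 0.0161). The most abundant genes of the list were Apoe (9289 ± 1167 CPM in Young), Ctsd (3191 ± 619.6 CPM) and Ctsb (1407 ± 114 CPM). Their log2 fold changes were -0.26, -0.18 and 0.11, with an adjusted p of at least 0.335. The per-library ratio of Itgax to Itgb2 CPM was 0.283 ± 0.0855 in Young and 0.635 ± 0.126 in Old (SD, n = 7 and 4).

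Among 11 tested genes of resident tissue macrophages, 3 rose: Ms4a7 (log2 fold change 2.04, edgeR adjusted p = 0.00231), Cbr2 (2.66, adjusted p = 0.0254) and Stab1 (0.72, adjusted p = 0.0256). Cbr2, a carbonyl reductase, ranged widely, with 410.2 ± 308 CPM in Old and 138 ± 99.1 CPM in Old-Control. The receptors Mrc1 (-0.34, adjusted p = 0.532) and Lyve1 (0.70, adjusted p = 0.314) were not called. Of 10 monocyte genes, 1 rose: Treml4 (2.37, adjusted p = 0.0444), which was at 0.114 ± 0.143 CPM in Young and 0.576 ± 0.259 CPM in Old. The chemokine receptor Ccr2 (1.00, adjusted p = 0.163), Ly6c2 (-0.11, adjusted p = 0.923), Vcan (-0.56, adjusted p = 0.644), Ace (0.86, adjusted p = 0.13) and Plac8 (2.23, adjusted p = 0.0692) were not called.

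Of 7 genes of class II antigen presentation, 4 rose. They included Cd74, the invariant chain, from 14.6 ± 5.49 to 41.3 ± 21.9 CPM (log2 fold change 1.5, edgeR adjusted p = 0.0132), H2-Ab1 (1.59, adjusted p = 0.00784) and H2-Eb1 (1.33, adjusted p = 0.0118).

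Ligands of the member receptors were examined as a list of 5. Cx3cl1, or fractalkine, the ligand of CX3CR1, was at 12.3 to 20.8 CPM in Young and at 32.5, 42.2, 32.5 and 36.4 CPM in Old. It rose by 1.15 on the log2 scale (SE 0.12, edgeR adjusted p = 3.68e-05), with no overlap of libraries. Icam1, which binds ITGB2 integrins, rose by 1.44 (adjusted p = 0.00971). Csf1 was at 13.1 ± 3.59 CPM in Young and 16.7 ± 2.96 CPM in Old (0.34, adjusted p = 0.285), not called. Il34 was at 4.07 ± 1.69 CPM in Young and 3.80 ± 1.12 CPM in Old (-0.10, adjusted p = 0.873), not called.

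Of 12 genes that signal below TREM2, TYROBP and CSF1R, 4 rose. The kinase Syk rose by 2.07 (edgeR adjusted p = 0.00443), the exchange factor Vav1 by 1.56 (adjusted p = 0.00128) and the lipid phosphatase Inpp5d by 1.38 (adjusted p = 0.0169). The broadly expressed Grb2 (-0.11, adjusted p = 0.434) and Cbl (0.13) and the adaptor Blnk (0.76, adjusted p = 0.246) were not called. Among 5 tested partners of ITGB2, Itgax and Fermt3 (1.35, adjusted p = 0.0242) rose and talin, Tln1, was not called (-0.20, adjusted p = 0.218). Itgam, which encodes the alpha M chain, was at 5.99, 20.6, 10.1 and 37.5 CPM in Old and at 0.787 to 11.9 CPM in Young. It overlapped between the groups and was not called (1.89, SE 0.60, adjusted p = 0.0553).

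In Old-OSK against Old-Control, 2 of the 102 genes rose and 0 fell (edgeR, adjusted p under 0.05). Among them was Cd9, a tetraspanin that many cell types express, which had 77.7, 105 and 97.1 CPM in Old-Control and 251, 266, 237 and 144 CPM in Old-OSK (log2 fold change 1.27, SE 0.21, edgeR adjusted p = 0.0102). The Cd9 values of the groups did not overlap. An unadjusted p under 0.05 was reached by 18 genes, 17 of them higher, against 13.3% of all genes higher and 13% lower at the same threshold, and the median log2 fold change over the 102 was 0.36. With the replicate number as a block 4 genes were called, and DESeq2 called 9. The count ran from 0, without Old-Control replicate 1, to 7, without Old-Control replicate 2, over the fits without 1 library. Over all genes, DESeq2 called 999 higher and 641 lower of 15944 tested, and the block called 381 and 80 of 15256. The fit without Old-Control replicate 1 called 12 higher and 1 lower of 16178. Without Old-Control replicate 2 the all-gene calls were 1007 higher and 1874 lower of 16114.

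Il34 had 1.99, 5.28 and 4.33 CPM in Old-Control and 10.7, 14.4, 15.4 and 8.90 CPM in Old-OSK. Each Old-OSK library exceeded every library of the other groups, and the log2 fold change of 1.67 (SE 0.42) was not called (edgeR adjusted p = 0.0643). Cx3cl1 (0.44, adjusted p = 0.0994), Csf1 (0.39, adjusted p = 0.361), Itgam (1.71, adjusted p = 0.179) and Tmem119 (0.63, adjusted p = 0.269) were not called either. In Old-Control against Old 0 of the 102 genes were called, and 1 had an unadjusted p under 0.05.

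**Figure D4:**
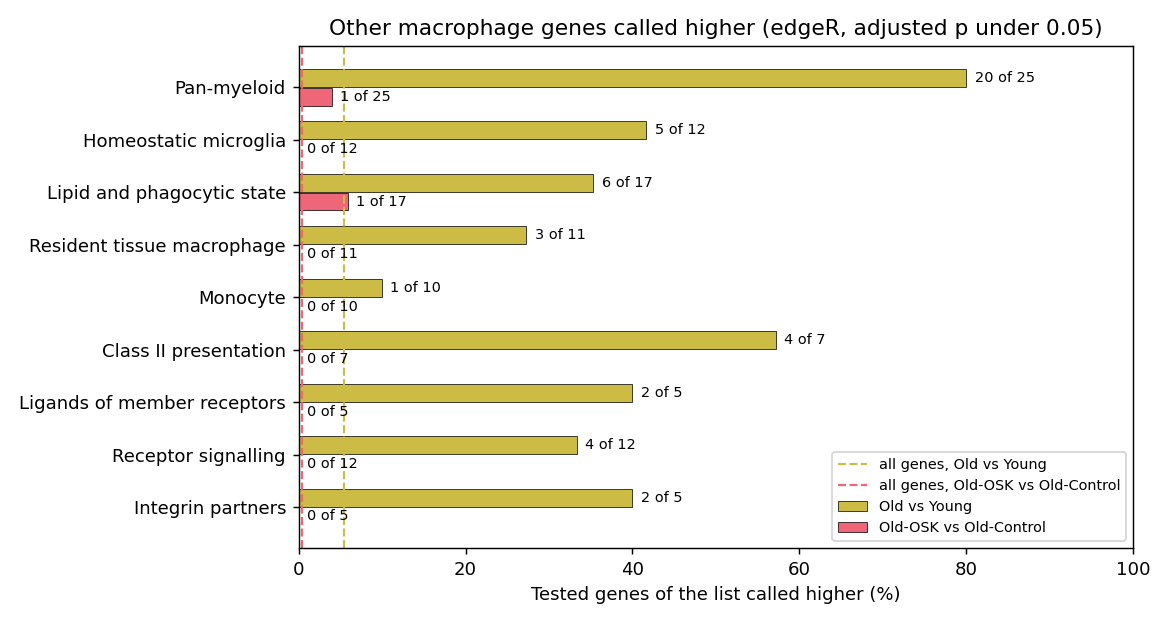
Share of the tested genes of each list called higher in Old against Young and in Old-OSK against Old-Control, with the numbers beside the bars and dashed lines for the share among all genes. Pan-myeloid genes have the largest share with age (20 of 25), and in Old-OSK only 2 lists hold a called gene.

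Other blood cell markers were summed in the same way. Summed over 11 T and NK cell genes, levels were 2.08 to 12 CPM in Young, 5.71 to 13.2 CPM in Old, 11.2 to 13.8 CPM in Old-Control and 4.49 to 20.04 CPM in Old-OSK. The 5 B cell genes in the table summed to at most 5.77 CPM and 6 mast cell genes to at most 3.12 CPM in any library. None of the genes of these 3 lists was called by edgeR in any comparison. At an unadjusted p under 0.05, 1 of 9 tested T and NK cell genes, 1 of 3 B cell genes and 3 of 4 mast cell genes were higher in Old than in Young, against 15.6% of all genes. Of 8 neutrophil genes, 4 were tested, and all 4 rose in Old, against 5.4% of all genes. They were S100a8 (log2 fold change 3.32), S100a9 (3.39), Csf3r (1.96) and Ltf (3.15), with edgeR adjusted p between 0.00136 and 0.0267. The 8 genes summed to 0.753 to 9.58 CPM in Young, 5.89 to 86.7 CPM in Old, 7.68 to 14.95 CPM in Old-Control and 7.29 to 60.0 CPM in Old-OSK. The highest neutrophil sums were those of Old replicate 4 and Old-OSK replicate 2. Most of the sum was Ltf, with means of 32.2 CPM in Old and 32.1 CPM in Old-OSK. The mean sums of the 8 genes there were 38.8 and 37.5 CPM. The neutrophil genes that were not tested had few counts: Ly6g had 2 over all 18 libraries, Retnlg 9, Elane 12 and Mpo 30. The 5 red blood cell genes, hemoglobin genes among them, summed to 60.2 to 263 CPM in Young, 89.4 to 146 CPM in Old, 72.4 to 119.9 CPM in Old-Control and 57.3 to 286 CPM in Old-OSK. Their ranges overlapped between all 4 groups, and 0 were called or had an unadjusted p under 0.05 (edgeR).

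Retinal rod transcripts varied widely between libraries, with overlap between the groups. The 8 rod genes summed to 144 to 2787 CPM in Young, 1921 to 6956 CPM in Old, 1474 to 17450 CPM in Old-Control and 2610 to 14749 CPM in Old-OSK. None of them was called by edgeR in any comparison, and 2 of the 8 were higher in Old than in Young at an unadjusted p under 0.05, against 15.6% of all genes. All 8 had a positive log2 fold change in Old against Young, with a median of 1.39 against -0.0044 for all genes. Within the 7 Young libraries the summed CPM of the 9 macrophage genes (52.5 to 76.3 CPM) correlated with the rod sum at r = -0.594, and over all 18 libraries at r = 0.630. Old replicates 1 to 4 had rod sums of 6956, 1940, 1921 and 4839 CPM and 463, 299.6, 696 and 420 CPM of the 9 genes. The part of rod, neutrophil or RPE content in the macrophage values was not tested.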

How the data were processed

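Per the labels' protocols, RPE RNA was extracted with TRIzol and polyA RNA was made into full-length cDNA with a SMART-Seq v4 kit and into Nextera XT libraries by transposase, a preparation that does not mark strand. Raw gene counts of the 18 libraries were deposited by the authors as 1 table. STAR 2.7.1a and featureCounts 1.6.2 are named in the submitters' processing notes, beside human and mouse builds without roles. The annotation and the strand setting are not given in the sources used here. Each column was assigned to its library through the title.

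The members and gene lists were chosen with earlier results of these data known. Low-count genes were removed by edgeR 4.0.16 (filterByExpr, minimum count 10, total 15), leaving 15944 genes, and the counts were scaled by TMM and fitted with 4 group means (glmQLFit and glmQLFTest, R 4.3.3). The 3 contrasts set Old against Young, Old-Control against Old, and the 2 vector groups against each other. Tests of the list genes outside the members run over all genes. Correlations use log2 CPM with a prior count of 2. The lists were 9 of other macrophage genes and markers of RPE, rods, Müller glia and astrocytes, endothelium, stroma, red blood cells, T and NK cells, B cells, neutrophils and mast cells. Müller glia and astrocyte genes (1 of 7, Gfap) and stroma genes (1 of 6, Col1a2) had 1 gene lower in Old, and the RPE, endothelium and red blood cell genes had 0 calls in every contrast. Named genes were the members, the 3 most abundant genes of each macrophage list, up to 3 called genes with the lowest p in each contrast, 12 markers and ligands set by name, and the 8 genes with the most similar profile. A few genes named by this rule are left out of the text.

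In Old-OSK against Old-Control, deviations of equally numbered libraries correlated with r = 0.103, 0.421 and 0.339, which was taken as pairing these libraries. Unequally numbered libraries had r between -0.340 and 0.392 (Old-OSK 1 with Old-Control 3). Old-Control 2 and 3 carry M and Old-OSK 2 and 3 do not, so these numbers join male with female libraries. The pairing rests on the check alone and is doubtful. Every pair of replicate libraries differed beyond sampling noise (lowest chi-square per gene 19.1). In simulated data, edgeR recovered 57 of 100 genes changed 2-fold and 90 of 100 changed 4-fold in Old-OSK against Old-Control. Alternatives were median-ratio size factors, other low-count filters, robust empirical Bayes, DESeq2 1.42.0, the 2 groups alone, M as a covariate, libraries without M, the replicate block and leaving out each library.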

Additional observations from a re-analysis of the deposited data

Results flagged for a closer look

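In groups of 4 to 10 libraries, 30 sets of CPM values (the 10 genes in Young, Old and Old-OSK) were searched for a library far from the others, a search in which chance flags about 1 in 20. Of the sets searched, 2 held such a library. Cd68 in Young replicate 3 was 10.8 CPM, above the 7.06 to 8.16 CPM of the other Young libraries. Csf1r in Old-OSK replicate 2 was 136 CPM, below the 215 to 227 CPM of the other Old-OSK libraries, and the RPE markers summed to 15440 CPM there, the lowest of the 18 libraries.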

How the results depend on the processing

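The number of members called in Old-OSK against Old-Control was 0, 3 with DESeq2, 1 in the paired libraries without the block and 2 without both Old replicate 4 and Old-Control replicate 2. It was 0 to 2 over the fits without 1 library (1 without Old-OSK replicate 4, 2 without Old-Control replicate 2) and 0 with the replicate block. Over all genes, 896 were called higher and 842 lower of 15850 without Old-OSK replicate 4. Without Old-Control replicate 2 they were 1007 and 1874 of 16114, and without Old replicate 4 as well 1492 and 2237 of 16006. In Old-Control against Old the number of members called was 0 under every alternative run. Other macrophage genes called in Old against Young numbered 46, 23 in the libraries without M, 11 in the paired libraries without the block, 0 with the replicate block and 29 to 48 without 1 library. In that contrast, equally numbered libraries did not deviate together (r of -0.19 to 0.14). Those called in Old-OSK against Old-Control numbered 2, 9 with DESeq2, 0 with the 2 groups alone, 1 with M as a covariate, 4 with the replicate block, 9 in the paired libraries without the block, 9 without Old replicate 4 and Old-Control replicate 2, and 0 to 7 without 1 library. Over all genes the split of 65 higher and 51 lower in Old-OSK against Old-Control became 64 and 29 with median-ratio size factors. It was 2 and 0 with the 2 groups alone, 41 and 17 with M as a covariate and 999 and 641 with DESeq2. The replicate block gave 381 and 80, and the paired libraries without the block gave 898 and 92. Over the fits without 1 library it ran from 12 and 1 (without Old-Control replicate 1) to 1007 and 1874 (without Old-Control replicate 2). The cause of these moves was not tested. In the contrasts among old RPE, the block changed no call of a member. In Old against Young, the all-gene calls of 861 higher and 663 lower became 0 and 0 with the block. They were 105 and 86 in the paired libraries without the block. The alternatives without both libraries and of the paired libraries without the block were chosen after seeing the data.

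Of 560 alternative values of single members, 531 counted as unchanged, 9 passed the threshold and 20 changed sign, none of them past the threshold. In the contrasts among old RPE, unchanged means the same direction and side of the threshold. In Old against Young, where members had no test, it means the same direction and a move smaller than the SD of log2 CPM within groups. The sign changes in Old-OSK against Old-Control were Lyz2 without Old-Control replicate 2 (0.15) and without Old replicate 4 as well (0.15). The others were in Old-Control against Old, where all values lay near 0. Over the fits without 1 library, Lyz2 in Old-OSK against Old-Control ranged from -0.40 to 0.15, and in Old-Control against Old Lyz2 ranged from -0.067 to 0.51, Ctss from -0.12 to 0.34, Csf1r from -0.31 to 0.34, Aif1 from -0.25 to 0.20 and Cx3cr1 from -0.093 to 0.44. Lyz2 was -0.067 and -0.14, Ctss -0.12 and -0.16 and Csf1r 0.34 and 0.18 without Old-Control replicate 2 and without both libraries, and Itgb2 was -0.055 without both. Ctss was -0.014 without Old replicate 2. Csf1r was 0.014, 0.059 and 0.062 without Old replicates 1, 2 and 3. Aif1 was 0.10 with the replicate block, 0.14 in the paired libraries without it, 0.15 without Old replicate 4 and 0.20 without Old-Control replicate 1. Cx3cr1 was -0.015 with M as a covariate and -0.093 without Old-Control replicate 3, and Cd52 was 0.057 with M as a covariate. Low counts limit Aif1 and Cd52 in Young most (6 and 7 counts at the lowest).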
